A study of Mus musculus with 11 samples.

Results

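The genes of glucose breakdown, of the response to low oxygen, and of pyruvate use were measured in mouse Leydig tumor cells (MLTCs) in which *Mamld1* was knocked down with siRNA. The set holds 47 genes chosen by name from these pathways, of the 17016 genes named on the array. They were found by matching the RefSeq accession of each probe to a gene symbol, which gave 73 of 41174 probes. *Pgm2l1* was listed because its probes were known to be higher with both siRNAs, so its values are given as a description, without a test. It is left out of the counts of the comparisons against control. Of the 73 probes, 67 probes of 43 genes were tested, among 24248 tested probes in all, because in 1 group or more each array gave a signal well above background. The 4 genes without a tested probe were *Slc2a3*, *Eno2*, and *Egln3*, which were well above background on no array, and *Epas1*, which reached that mark on 2 of 4 arrays in control, 1 of 4 with siRNA1, and 1 of 3 with siRNA2.

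Single-color arrays were made from RNA of MLTC-1 cells, a line derived from a mouse Leydig cell tumor. All cells received 20 nM of RNA with Lipofectamine RNAiMAX, and their RNA was taken after 48 h. The control group (4 arrays) received the non-targeting RNA 4611G, and the siRNA1 group (4 arrays) and the siRNA2 group (3 arrays) each received 1 of 2 siRNAs against *Mamld1*. The methods of the study add that hCG was given after 48 h of incubation and the cells were harvested 1 hour later. The labels do not name this step. The labels call the arrays replicates without saying whether they came from separate cultures, so p-values measure the spread between these arrays, which may be technical. A level is the signal of a probe scaled to the 75th percentile of its array, as a percentage of the control group's geometric mean, and a difference is on the log2 scale. A probe was called at an adjusted p of 0.05 or less.

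Glycolysis turns glucose into pyruvate, which is reduced to lactate in the cytosol or enters the mitochondrion, where pyruvate dehydrogenase feeds it to the citric acid cycle. Hypoxia-inducible factors are transcription factors that raise many glycolytic genes when oxygen is short, by binding a short core sequence near those genes, and their alpha subunits are marked for breakdown by oxygen-dependent prolyl hydroxylases. Leydig cells make testosterone from cholesterol, a task that draws NADPH and ATP from the same carbon sources.

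The core sequence bound by hypoxia-inducible factors, ACGTG or GCGTG on either strand, was looked for in the 250 bases before each RefSeq gene start (build GRCm38.p6), and a palindrome such as CACGTG counts as 2 overlapping matches. Of the 47 genes, 45 had a promoter in the RefSeq table. Among their 63 promoters, 51 (81.0%) held at least 1 match, against 12679 of 32851 (38.6%) of all RefSeq promoters and 6493 of 12083 (53.7%) of the promoters of genes with a tested probe. The median GC content was 60.4%, 52.4%, and 59.2% in the 3 sets, and its part in these shares was not tested. A match is a description of letters and not a binding site. The 6 promoters printed here belong to the members on which the results turn, with the matches in capitals. They are the phosphoglucomutase-like *Pgm2l1* and its family member *Pgm3*, which has no match, then *Pfkfb3*, *Ankrd37*, *Egln1*, and *Adm*. *Pfkfb3* has 2 RefSeq starts, and the one with more matches is shown. Each runs 5′ to 3′ on the strand of the gene and ends at the base before the start.
Pgm2l1, chr7:100227357-100227606, plus strand: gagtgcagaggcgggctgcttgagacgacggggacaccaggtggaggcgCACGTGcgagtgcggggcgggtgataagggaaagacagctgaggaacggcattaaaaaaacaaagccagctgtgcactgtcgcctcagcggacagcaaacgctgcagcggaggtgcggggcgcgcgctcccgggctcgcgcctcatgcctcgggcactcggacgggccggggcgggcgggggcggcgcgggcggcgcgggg
Pgm3, chr9:86571843-86572092, minus strand: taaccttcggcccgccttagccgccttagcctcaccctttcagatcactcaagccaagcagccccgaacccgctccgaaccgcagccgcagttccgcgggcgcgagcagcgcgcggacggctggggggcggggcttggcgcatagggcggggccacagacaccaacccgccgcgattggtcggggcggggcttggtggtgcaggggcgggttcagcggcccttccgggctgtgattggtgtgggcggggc
Pfkfb3, chr2:11502091-11502340, minus strand: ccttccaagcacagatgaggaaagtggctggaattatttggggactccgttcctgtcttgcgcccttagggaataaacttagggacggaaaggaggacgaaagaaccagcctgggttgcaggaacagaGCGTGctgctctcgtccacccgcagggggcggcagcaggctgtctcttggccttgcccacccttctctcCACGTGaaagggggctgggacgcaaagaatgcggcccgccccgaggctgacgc
Ankrd37, chr8:45999851-46000100, minus strand: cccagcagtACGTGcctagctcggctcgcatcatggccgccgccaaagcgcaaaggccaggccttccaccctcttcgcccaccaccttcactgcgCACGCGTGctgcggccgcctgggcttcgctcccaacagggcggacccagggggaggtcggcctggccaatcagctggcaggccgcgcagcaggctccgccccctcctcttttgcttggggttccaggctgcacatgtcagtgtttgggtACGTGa
Egln1, chr8:124949255-124949504, minus strand: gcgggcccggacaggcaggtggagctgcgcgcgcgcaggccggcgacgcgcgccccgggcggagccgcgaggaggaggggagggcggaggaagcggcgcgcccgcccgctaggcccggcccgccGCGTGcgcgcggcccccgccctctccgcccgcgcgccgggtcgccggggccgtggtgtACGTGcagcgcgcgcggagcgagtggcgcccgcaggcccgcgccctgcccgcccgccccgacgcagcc
Adm, chr7:110627407-110627656, plus strand: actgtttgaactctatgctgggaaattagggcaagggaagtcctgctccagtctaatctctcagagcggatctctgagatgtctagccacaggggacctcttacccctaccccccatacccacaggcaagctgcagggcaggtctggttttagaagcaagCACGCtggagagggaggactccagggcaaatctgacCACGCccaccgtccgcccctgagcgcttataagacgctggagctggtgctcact
The matches of *Pgm2l1* form 1 palindrome that begins 201 bases before the start, *Pfkfb3* has such a palindrome 53 bases and a single match 122 bases before it, and *Ankrd37* has 4 matches, of which the nearest lies 6 bases before the start.

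The targeted gene was lower with each siRNA. The level of *Mamld1* was 85.2% to 119% on the control arrays, 44.1% to 77.0% with siRNA1, and 45.3% to 68.6% with siRNA2, without overlap with control (log2 difference of -0.93 and adjusted p of 0.0057 with siRNA1, -0.77 and 0.0309 with siRNA2). The 75th percentile of the signal was 469.7 to 582 in control, 601 to 774 with siRNA1, and 488 to 579 with siRNA2. Each of the 3 slides that carried the arrays held all 3 groups. All 10 probes of 8 Leydig cell markers were well above background on every control array. None of 10 macrophage and leukocyte probes was, though *Csf1r* was on 3 of 4. On every control array, 4 of 9 Sertoli cell probes, 5 of 9 germ cell probes, and 2 of 5 endothelial probes also reached that mark. Of these Leydig markers, *Cyp17a1* (-0.92), *Lhcgr* (-0.63), and *Scarb1* (-0.58) were lower with siRNA1 and *Cyp17a1* (-0.48) with siRNA2 (adjusted p between 0.000216 and 0.0237). Among the Sertoli cell markers only *Dhh* was called, higher with siRNA2 (0.72, adjusted p = 0.00103). Among the germ cell markers only *Ddx4* was called, lower with siRNA1. Its mean signal was 19.6 in control and 7.80 with siRNA1, where it was well above background on 1 of 4 arrays. Its difference of -1.72 thus lies near the floor and is given as a description. Of 5 endothelial probes, both of *Cdh5* were higher with each siRNA (log2 difference of 1.22 and 0.94 with siRNA1, 0.84 and 0.84 with siRNA2). The summed signal of the list was 401 to 502 in control, 969 to 1684 with siRNA1, and 688 to 1059 with siRNA2. These sums were not scaled to the 75th percentile, so they also hold the brightness of each array. The other endothelial markers, *Pecam1*, *Tek*, and *Kdr*, did not rise well above background in control, and the part of these marker differences in the results on the 47 genes was not tested.

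Compared with the control arrays, siRNA1-transfected MLTCs had higher levels of *Hif1a*, the oxygen sensor *Egln1*, the phosphoglucomutases *Pgm3* and *Pgm1*, the glycolytic regulator *Pfkfb3*, *Eno1*, and *Pdhb*. The regulator *Pfkfb2* was called higher by 1 probe, while another of its probes gave -0.29 and was uncalled. Lower were the glucose carrier *Slc2a8*, the hypoxia-induced *Ankrd37* and *Vegfa*, the aldolase *Aldoc*, the enolase *Eno3*, and the kinase *Pdk2*. Of 64 probes tested without *Pgm2l1*, 9 probes of 8 genes (14.1%) were called higher, where 11.8% of all tested probes were. Another 7 probes of 6 genes (10.9%) were called lower, against 15.2% of all. None of the 64 also differed at least 2-fold, against 1.19% of all probes higher and 1.81% lower. Both directions together made 16 of the 64 probes (25%), against 27% of all. All siRNA1 arrays lay above all control arrays for 7 of the 64 (12.7% of all probes) and below them for 8 (16.4% of all). The median difference of the 64 probes was -0.045, against -0.048 for all tested probes, and their median absolute difference was 0.14, against 0.22. A model with slide as a block called 20 of the 64, against 35.8% of all probes. With normexp background correction, 1 of the 64 was called, against 1.57% of all probes. With extreme local backgrounds replaced before normexp, 18 of the 64 were called, against 30.8% of all.

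In siRNA2-transfected MLTCs, *Pgm3* and *Pfkfb3* were higher, and *Adm*, *Ankrd37*, *Vegfa*, *Egln1*, *Slc2a8*, *Pdk1*, *Pdk2*, the hexokinase *Hk1*, and the malic enzyme *Me1* were lower. The 5 probes of 2 genes called higher were 7.81% of the 64, against 7.7% of all probes. The 12 probes of 9 genes called lower were 18.8%, against 10.7%. *Pfkfb3* and *Pgm3* also differed at least 2-fold, with 1 probe each, against 0.742% of all probes higher and 1.51% lower. The 17 probes called in either direction were 26.6% of the 64, against 18.4% of all. All siRNA2 arrays lay above all control arrays for 8 of the 64 probes (12.3% of all probes) and below them for 13 (15.7% of all). The median difference was -0.025, against -0.0082 for all probes, and the median absolute difference was 0.15, against 0.19. The count of 17 called probes was 21 with slide as a block (25.5% of all probes) and 0 with normexp background correction (0.507% of all). With extreme local backgrounds replaced before normexp, the count was 14 (15.5% of all). It fell to 11 without control replicate 3, 10 without control replicate 4, 8 without siRNA2 replicate 2, and 11 without siRNA2 replicate 3, where between 12.3% and 15.6% of all probes were called. Scaling by the array median called 10 (13.4% of all probes). It ended the siRNA2 calls of *Slc2a8* (both probes), *Egln1*, *Vegfa*, *Me1*, *Pdk1*, and a dimmer *Hk1* probe. Quantile normalization called 12 (18.7% of all) and ended those of *Egln1*, *Vegfa*, *Me1*, *Pdk1*, and the same dimmer *Hk1* probe. Both siRNAs were compared with the same 4 control arrays, so the values of the 2 comparisons are set side by side and no overlap is read from them.

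**Figure D1:**
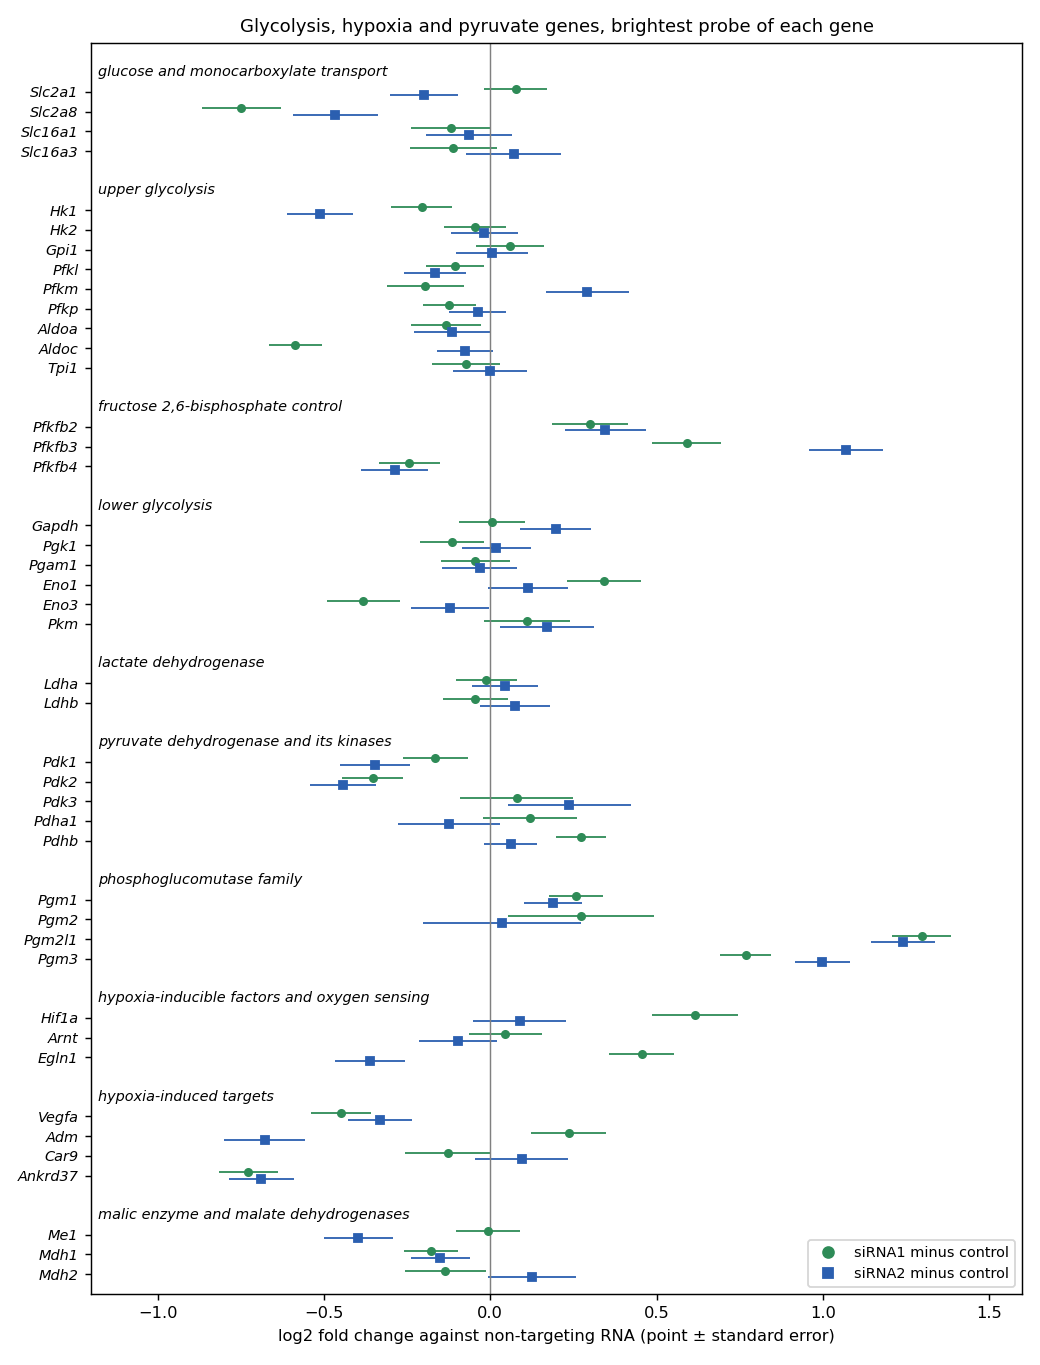
Log2 difference between each siRNA group and the control arrays for the brightest tested probe of each of 43 genes, grouped by role, with the point at the fitted value and the line for 1 standard error (circles, siRNA1, 4 arrays; squares, siRNA2, 3 arrays; control, 4 arrays). *Pgm2l1*, *Pgm3*, and *Pfkfb3* lie farthest to the right, *Ankrd37* and *Slc2a8* farthest to the left, and most enzymes of the main glycolytic chain lie near 0.

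Phosphoglucomutases move the phosphate of glucose between its first and sixth carbon, which links glycogen and glucose-1-phosphate to glycolysis. *Pgm2l1* encodes a relative of these enzymes that makes glucose-1,6-bisphosphate, their cofactor. Its brightest probe stood at 103%, 93.3%, 101%, and 103% on the control arrays, at 268%, 215%, 247%, and 256% with siRNA1, and at 255%, 218%, and 237% with siRNA2. All 7 siRNA arrays were above all 4 control arrays, and the siRNA1 and siRNA2 arrays overlapped each other. The middle probe stood at 101%, 103%, 95.4%, and 100% in control, 241%, 199%, 244%, and 221% with siRNA1, and 218%, 183%, and 198% with siRNA2. The dimmest probe, at 84.4% to 110% in control, stood at 154% to 179% with siRNA1 and 134% to 148% with siRNA2. The fitted log2 differences were 1.30, 1.17, and 0.76 with siRNA1 and 1.24, 0.99, and 0.49 with siRNA2 for the 3 probes, and within the 3 slides they lay between 0.68 and 1.45 with siRNA1 and between 0.29 and 1.38 with siRNA2. With normexp background correction after extreme local backgrounds were replaced, the middle probe gave 0.37 and 0.39 and the dimmest 0.060 and 0.11, while the brightest kept 1.00 and 0.93. Since the gene was chosen for this pattern, these values carry no test. The difference between the siRNAs was 0.055, 0.18, and 0.27 for the 3 probes. The choice used the values of both siRNA groups, so these differences are also a description without a test.

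*Pgm3*, whose enzyme acts on N-acetylglucosamine phosphate in the making of UDP-GlcNAc rather than on glucose phosphate, changed in the same direction. The levels of its brighter probe were 104%, 104%, 101%, and 92.1% on the control arrays, 177%, 161%, 173%, and 171% with siRNA1, and 215%, 189%, and 196% with siRNA2. The 3 groups did not overlap, with siRNA2 the highest. The log2 difference was 0.77 ± 0.08 (SE) with siRNA1 (adjusted p = 4.14e-05) and 1.00 ± 0.08 with siRNA2 (adjusted p = 2.00e-05). Within the slides it was 0.77, 0.73, and 0.89 with siRNA1 and 1.05, 0.91, and 1.09 with siRNA2. The dimmer probe gave 0.72 (adjusted p = 0.00124) and 1.02 (adjusted p = 0.00031). The difference between the siRNAs for the brighter probe was -0.23 (adjusted p = 0.0682, or 0.0328 in the model with slide), and that for the dimmer -0.30 (adjusted p = 0.119, or 0.0424 with slide). The call with each siRNA was kept without any single array and was lost with normexp background correction (0.46 and 0.75, adjusted p = 0.382 and 0.395).

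The 2 enzymes that act on glucose phosphate moved less. *Pgm1*, the main one, stood at 101%, 111%, 90.6%, and 99.0% in control, 121%, 127%, 120%, and 111% with siRNA1, and 113%, 117%, and 111% with siRNA2. All siRNA1 arrays lay just above the highest control array, with a log2 difference of 0.26 ± 0.08 (adjusted p = 0.0363). With siRNA2 the difference was 0.19 (adjusted p = 0.175). The siRNA1 call was lost without control replicate 1, 3, or 4, siRNA1 replicate 1, 2, or 3, or siRNA2 replicate 2 (adjusted p between 0.0532 and 0.103), and the sign turned with normexp background correction (-0.10). *Pgm2* was dim and scattered, at 90.1% to 124% in control, 80.7% to 157% with siRNA1, and 74.5% to 127% with siRNA2, and passed with neither siRNA (0.27 and 0.036, adjusted p = 0.400 and 0.950).

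**Figure D2:**
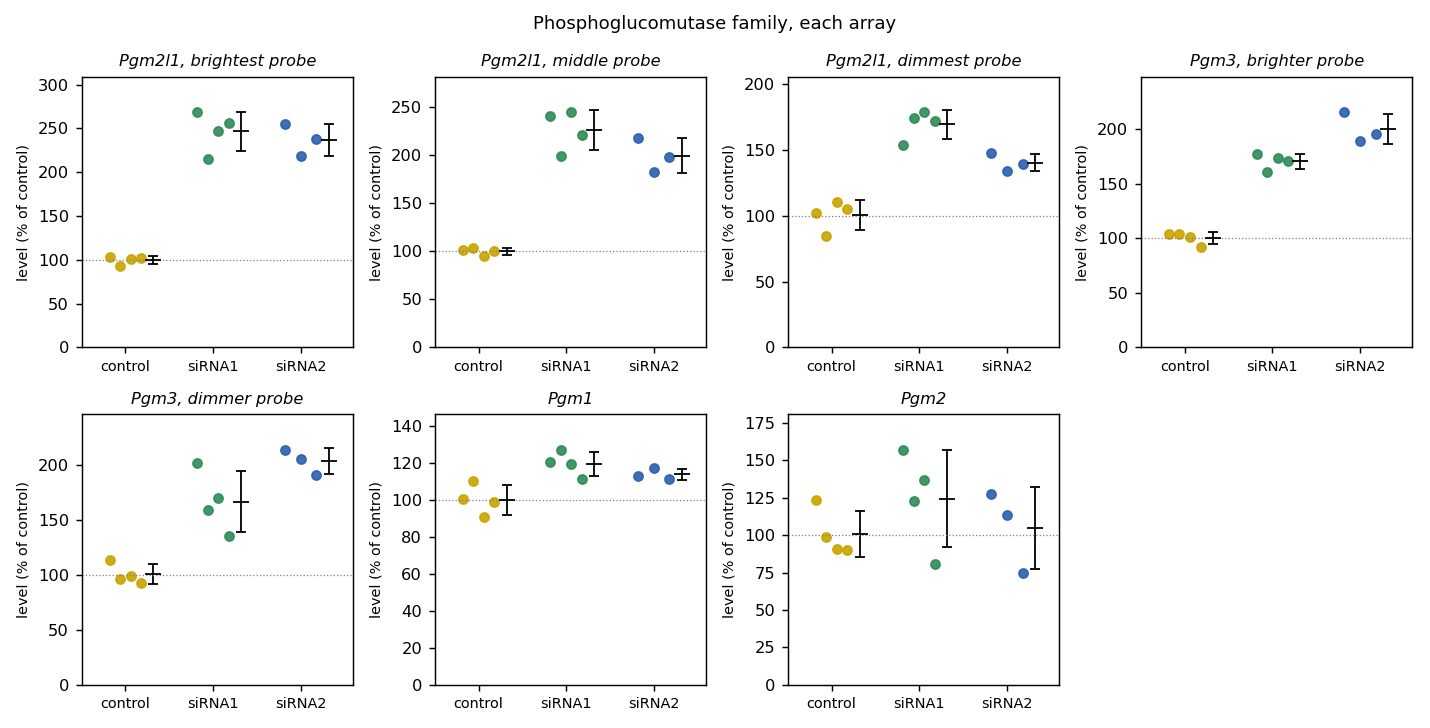
Level of each probe of the phosphoglucomutase family on every array, in percent of the control group, with points for single arrays and the bar for the mean ± SD (4 control, 4 siRNA1, and 3 siRNA2 arrays). The siRNA arrays of all 3 *Pgm2l1* probes and both *Pgm3* probes lie above the control arrays, those of *Pgm1* lie just above them (its siRNA1 difference turned to -0.10 with normexp background correction), and those of *Pgm2* overlap them.

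Fructose 2,6-bisphosphate is the strongest activator of phosphofructokinase, and the *Pfkfb* genes encode the enzymes that make and remove it. *Pfkfb3*, the form that mostly makes it and is induced by low oxygen, was higher with both siRNAs. Its brightest probe stood at 108%, 98.9%, 88.9%, and 106% in control, 161%, 130%, 159%, and 155% with siRNA1, and 232%, 190%, and 210% with siRNA2. The groups did not overlap, and every siRNA2 array was above every siRNA1 array. The log2 difference was 0.59 ± 0.10 with siRNA1 (adjusted p = 0.00165) and 1.07 ± 0.11 with siRNA2 (adjusted p = 8.42e-05), and siRNA1 lay below siRNA2 by -0.48 ± 0.11 (adjusted p = 0.00917, and 0.0624 with scaling by the array median). Within the slides the siRNA1 difference was 0.65, 0.69, and 0.55, the siRNA2 difference lay between 0.99 and 1.17, and that between the siRNAs -0.52, -0.41, and -0.44. The dimmer probes gave 0.51 and 0.12 with siRNA1, which did not pass (adjusted p = 0.109 and 0.733), and 0.93 and 0.82 with siRNA2 (adjusted p = 0.0178 and 0.0299).

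The other forms did not share this pattern. The 3 *Pfkfb2* probes disagreed, with log2 differences of 0.30, 0.41, and -0.29 with siRNA1, of which only 0.41 was called (adjusted p = 0.0443), and 0.35, 0.33, and 0.14 with siRNA2, where none was. With slide as a block, the first probe passed with both siRNAs (adjusted p = 0.0325 and 0.0391), the second also with siRNA2 (0.0296), and the third with siRNA1 (0.0244). The probe with the negative value differed between the siRNAs by -0.43 (adjusted p = 0.0260), with levels of 80.6%, 93.2%, 81.9%, and 72.4% with siRNA1 against 95.5%, 119%, and 117% with siRNA2 and 94.2%, 90.6%, 102%, and 115% in control. That call was lost without siRNA1 replicate 1, 3, or 4 or siRNA2 replicate 2 or 3 (adjusted p between 0.0545 and 0.106), and the sign turned with normexp background correction (0.066). *Pfkfb4* gave -0.24 and -0.29 (adjusted p = 0.0756 and 0.0715, or 0.0273 and 0.016 with slide as a block). The dimmest *Pfkfb3* probe differed between the siRNAs by -0.70 (adjusted p = 0.0474), a call that was lost without any 1 of 9 arrays (all but siRNA1 replicate 2 and siRNA2 replicate 1, adjusted p between 0.0569 and 0.177) and whose sign turned with normexp (0.17). Its siRNA2 call was lost without control replicate 1, 2, or 4 or siRNA2 replicate 2 or 3 (adjusted p between 0.0563 and 0.115), and its value dropped to 0.11 (adjusted p = 0.519) with normexp after extreme local backgrounds were replaced.

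Among the carriers, *Slc2a8* (GLUT8), a glucose and disaccharide transporter held mostly on inner membranes, was lower with both siRNAs. The levels of its brighter probe were 97.3%, 87.4%, 101%, and 117% in control, 54.1%, 63.8%, 55.4%, and 65.8% with siRNA1, and 67.3%, 66.6%, and 84.7% with siRNA2. Every siRNA array was below every control array. The log2 difference was -0.75 ± 0.12 with siRNA1 (adjusted p = 0.000903) and -0.47 ± 0.13 with siRNA2 (adjusted p = 0.0271), and within the slides it was -0.77, -0.76, and -0.83 with siRNA1 and -0.45, -0.59, and -0.46 with siRNA2. Between the siRNAs it was -0.28 (adjusted p = 0.141, or 0.0301 with slide). The dimmer probe gave -0.47 (adjusted p = 0.0141) and -0.45 (adjusted p = 0.0340), with signs that turned to 0.22 and 0.068 with normexp background correction. The siRNA2 call of the brighter probe was lost without control replicate 3 or 4 or siRNA2 replicate 1 or 2 (adjusted p between 0.0587 and 0.112), and that of the dimmer probe without control replicate 2, 3, or 4 or siRNA2 replicate 1 or 2 (adjusted p between 0.0742 and 0.126). The main glucose carrier of the cell surface, *Slc2a1* (GLUT1), gave 0.076 and -0.20 (adjusted p = 0.601 and 0.225), and the siRNAs differed only with slide as a block (0.29, adjusted p = 0.0464, against 0.28 and 0.0767 without). The lactate carriers *Slc16a1* and *Slc16a3* passed with neither siRNA, with brightest-probe differences of -0.12 and -0.11 with siRNA1 and -0.063 and 0.070 with siRNA2.

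The chain from hexokinase to lactate dehydrogenase was mostly not called. Of its 24 tested probes of 17 genes, 3 (12.5%) were called with siRNA1, against 27% of all probes, and 3 (12.5%) with siRNA2, against 18.4% of all. With siRNA1 14 and with siRNA2 16 of the 17 genes had no called probe. The brightest probes of the 10 genes *Hk2*, *Gpi1*, *Aldoa*, *Tpi1*, *Gapdh*, *Pgk1*, *Pgam1*, *Pkm*, *Ldha*, and *Ldhb*, with signals of 16665 to 401135, gave log2 differences of -0.13 to 0.11 with siRNA1 and -0.12 to 0.20 with siRNA2. Their 95% confidence intervals reached from -0.37 to 0.40 and from -0.37 to 0.48, and the smallest adjusted p was 0.391 and 0.255. The 10 genes are a selection that leaves out the phosphofructokinases, also uncalled against control. For siRNA1, their brightest probes gave -0.19 (*Pfkm*, adjusted p = 0.246), -0.11 (*Pfkl*, 0.408), and -0.12 (*Pfkp*, 0.286). The siRNA2 values were 0.29 (0.140), -0.17 (0.272), and -0.038 (0.833). *Pfkm* thus lay outside both ranges, and *Pfkl* outside that of siRNA2. Several genes of the chain have processed pseudogenes or near-identical copies (*Gapdh*, *Pgk1*, *Tpi1*, *Ldha*, *Eno1*), so a probe may read more than 1 transcript.

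The exceptions in this chain with siRNA1 were an aldolase and 2 enolases. *Aldoc*, the aldolase of brain, is described with the differences between the siRNAs. *Eno1*, the general enolase, was at 86.1%, 104%, 117%, and 95.5% in control and 110%, 123%, 138%, and 138% with siRNA1, with 1 siRNA1 array inside the control range (0.34, adjusted p = 0.0411, or 0.0521 in the model with slide). *Eno3*, the muscle enolase, moved the other way, at 97.4%, 93.7%, 99.2%, and 110% in control and 69.4%, 83.5%, 67.8%, and 88.4% with siRNA1 (-0.38, adjusted p = 0.0239). With siRNA2 both were uncalled (0.11 and -0.12, adjusted p = 0.602 and 0.569). Scaling by the array median ended the siRNA1 call of *Eno3*.

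Pyruvate dehydrogenase is switched off by its kinases. Of 3 measured kinase genes, *Pdk2* was called lower with both siRNAs and *Pdk1* with siRNA2 only. *Pdk2* stood at 94.4%, 102%, 101%, and 103% in control, 70.6%, 88.5%, 71.8%, and 83.6% with siRNA1, and 72.0%, 70.0%, and 78.9% with siRNA2. All siRNA arrays lay below the control arrays, and the 2 siRNA groups overlapped. Fitted differences were -0.35 ± 0.09 with siRNA1 (adjusted p = 0.0149) and -0.44 ± 0.10 with siRNA2 (adjusted p = 0.00954), within the slides -0.47, -0.34, and -0.30 and -0.44, -0.53, and -0.39, and the signs turned to 0.22 and 0.044 with normexp background correction. Scaling by the array median ended the siRNA1 call (-0.31, adjusted p = 0.0716). *Pdk1*, which low oxygen induces, was called lower with siRNA2 (-0.35, adjusted p = 0.0417) and not with siRNA1 (-0.16, adjusted p = 0.243), and the difference between the siRNAs did not pass (0.18, adjusted p = 0.250). Its siRNA2 call ended with scaling by the array median and with quantile normalization. *Pdk3* was uncalled, with 0.080 and 0.24 for its brighter probe. Of the enzyme's own subunits, 1 of 2 probes of *Pdhb* was called with siRNA1 (0.27, adjusted p = 0.0200, other probe 0.13 and 0.252).

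Among the genes that low oxygen induces, *Ankrd37*, a small ankyrin-repeat gene and direct target of the hypoxia-inducible factor, was lower by a similar amount with each siRNA. It stood at 102%, 104%, 93.8%, and 100% in control, 61.0%, 64.9%, 53.1%, and 63.4% with siRNA1, and 65.7%, 55.9%, and 65.0% with siRNA2. The siRNA arrays were all below control and overlapped each other. The log2 difference was -0.73 ± 0.09 with siRNA1 (adjusted p = 0.000175) and -0.69 ± 0.10 with siRNA2 (adjusted p = 0.000618), within the slides -0.76, -0.68, and -0.66 and -0.65, -0.75, and -0.62. Between the siRNAs it was -0.039 (adjusted p = 0.816, 95% confidence interval -0.25 to 0.18). It kept its call without any single array, and it was the 1 probe of the set still called with normexp background correction, with siRNA1 (-0.77, adjusted p = 0.0277).

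*Vegfa*, the angiogenic growth factor, was called by 1 of its 3 probes. That brightest probe was at 106%, 109%, 94.6%, and 92.1% in control, 72.4%, 76.1%, 76.4%, and 68.5% with siRNA1, and 87.6%, 79.7%, and 71.8% with siRNA2, with no overlap with control. This gave log2 differences of -0.45 ± 0.09 (adjusted p = 0.00384) and -0.33 ± 0.10 (adjusted p = 0.0365). The other probes gave -0.033 and -0.15 with siRNA1 and -0.22 and -0.12 with siRNA2 (adjusted p between 0.0918 and 0.792). The siRNA2 call was lost without control replicate 1, 2, or 3, siRNA1 replicate 3, or siRNA2 replicate 2 or 3 (adjusted p between 0.0511 and 0.137). *Car9*, a carbonic anhydrase often used as a sign of low oxygen, was uncalled (-0.13 and 0.095, adjusted p = 0.511 and 0.727).

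**Figure D3:**
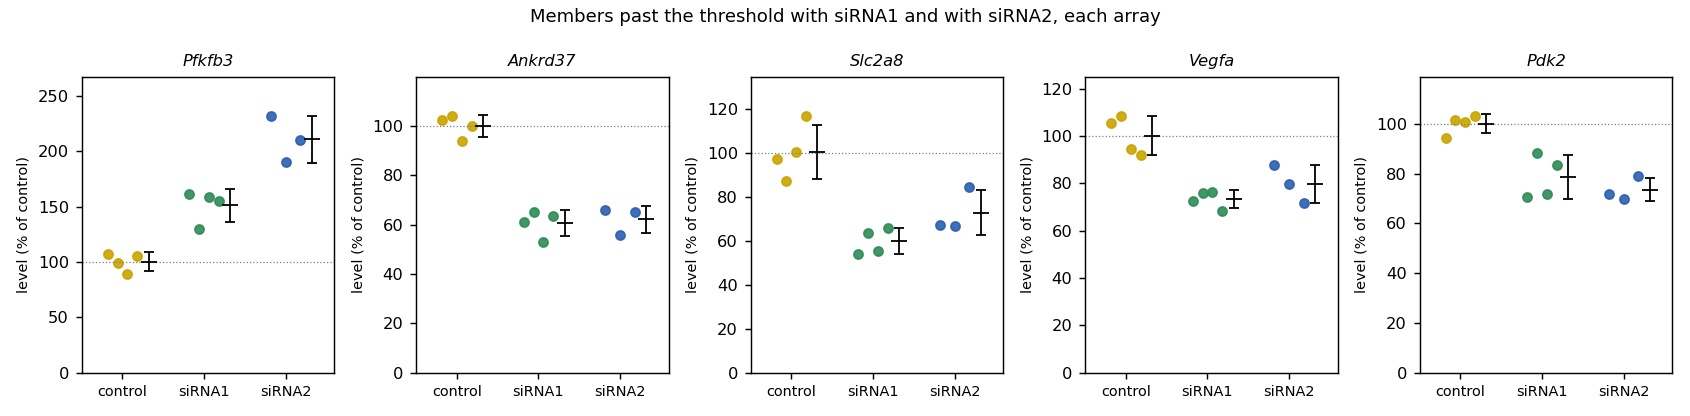
Level of the brightest probe of *Pfkfb3*, *Ankrd37*, *Slc2a8*, *Vegfa*, and *Pdk2* on every array, in percent of the control group, with points for single arrays and the bar for the mean ± SD (4 control, 4 siRNA1, and 3 siRNA2 arrays). All siRNA arrays of *Pfkfb3* lie above the control arrays and all those of the other 4 genes below them, where the *Pdk2* differences turned to 0.22 and 0.044 with normexp background correction.

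The siRNAs were then compared with each other. The control arrays have no part in these differences, but they enter the estimate of the spread between arrays, so leaving 1 out can change a call. With siRNA1, *Adm*, *Egln1*, *Hif1a*, *Hk1*, *Me1*, and *Pdha1* were higher than with siRNA2, and *Pfkfb3*, *Aldoc*, *Pfkm*, *Pfkp*, and *Pfkfb2* were lower. Of the 67 probes of 43 genes, 8 probes of 6 genes (11.9%) were called higher with siRNA1, where 11.7% of all tested probes were, and 6 probes of 5 genes (8.96%) were called lower, where 11.8% were. None also differed at least 2-fold, against 1.91% and 1.45% of all probes. The 14 probes called in either direction were 20.9% of the 67, against 23.5% of all. The arrays of the 2 groups did not overlap for 12 of the 67 probes with siRNA1 above (14.9% of all probes) and for 7 with siRNA1 below (16.4% of all). The 67 probes and the 12 include *Pgm2l1*, whose values are a description without a test. The 14 called probes are all of other genes. The median difference was -0.029, against -0.043 for all probes, and the median absolute difference 0.16, against 0.22. The count of 14 was 20 with slide as a block (32.1% of all probes) and 0 with normexp background correction (0.334% of all). With extreme local backgrounds replaced before normexp, the count was 16 (22.6% of all). It was 9 without siRNA1 replicate 3, 9 without siRNA2 replicate 2, and 7 without siRNA2 replicate 3, where between 17.5% and 18.3% of all probes were called. Scaling by the array median ended the calls of *Hk1* (brightest probe), *Me1*, and *Pfkfb3* (brightest probe).

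Genes of oxygen sensing were among those that differed between the siRNAs. *Egln1* encodes PHD2, the main prolyl hydroxylase that marks hypoxia-inducible factors for breakdown, and its RNA is itself induced by them. Its brighter probe was at 100%, 90.7%, 110%, and 99.6% in control, 143%, 121%, 151%, and 135% with siRNA1, and 85.0%, 71.4%, and 77.7% with siRNA2. The siRNA1 arrays lay above and the siRNA2 arrays below all control arrays. The log2 difference between the siRNAs was 0.82 ± 0.10 (adjusted p = 0.000249), within the slides 0.75, 0.92, and 0.80, and the dimmer probe gave 0.80 (adjusted p = 0.00329). Against control the brighter probe was called with siRNA1 (0.45, adjusted p = 0.00525) and with siRNA2 (-0.36, adjusted p = 0.0342), and the dimmer one with neither (0.39 and -0.40, adjusted p = 0.0646 and 0.0971). The siRNA2 call was lost without control replicate 1, 3, or 4 or siRNA2 replicate 2 or 3 (adjusted p between 0.0661 and 0.144).

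*Adm*, which encodes the vasodilator peptide adrenomedullin and is induced by low oxygen, was at 112%, 109%, 86.1%, and 95.2% in control, 135%, 113%, 113%, and 111% with siRNA1, and 70.2%, 56.7%, and 61.2% with siRNA2. The siRNA2 arrays were below all others, and the siRNA1 arrays overlapped with control at 1 end. The log2 difference between the siRNAs was 0.91 ± 0.12 (adjusted p = 0.000303), within the slides 0.95, 1.00, and 0.86. Against control it was called with siRNA2 (-0.68 ± 0.12, adjusted p = 0.00266), though this turned to 0.045 with normexp background correction, and with siRNA1 it was called only with slide as a block (0.31, adjusted p = 0.00395, against 0.24 and 0.147 without).

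*Hif1a*, the oxygen-regulated alpha subunit itself, was at 118%, 104%, 94.7%, and 86.1% in control, 169%, 141%, 177%, and 130% with siRNA1, and 117%, 108%, and 95.2% with siRNA2. Only the siRNA1 arrays left the control range, by a log2 difference of 0.62 ± 0.13 (adjusted p = 0.00486), with 0.61, 0.74, and 0.60 within the slides. With siRNA2 it was 0.089 (adjusted p = 0.746). The siRNAs differed by 0.53 ± 0.14 (adjusted p = 0.0184), a call lost without siRNA1 replicate 3 or siRNA2 replicate 2 or 3 (adjusted p between 0.0505 and 0.0795). Its partner subunit *Arnt* was uncalled in every comparison (0.045, -0.097, and 0.14).

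Among the glycolytic enzymes, *Aldoc* was called lower with siRNA1 and not with siRNA2. It stood at 100%, 95.8%, 99.2%, and 105% in control, 62.1%, 73.5%, 62.3%, and 69.2% with siRNA1, and 92.2%, 93.7%, and 98.8% with siRNA2. The siRNA1 arrays lay below all others. It differed from control by -0.59 ± 0.08 with siRNA1 (adjusted p = 0.000307), -0.076 with siRNA2 (adjusted p = 0.633), and -0.51 ± 0.09 between the siRNAs (adjusted p = 0.00135), with -0.57, -0.47, and -0.52 within the slides.

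*Hk1*, the hexokinase that most cells use, was instead lower with siRNA2. Its brightest probe was at 91.7%, 94.5%, 112%, and 103% in control, 77.5%, 88.9%, 96.7%, and 84.8% with siRNA1, and 69.6%, 69.9%, and 70.7% with siRNA2. The 3 siRNA2 arrays lay close together below all others. The log2 difference with siRNA2 was -0.51 ± 0.10 (adjusted p = 0.00425), and 2 other probes gave -0.51 (adjusted p = 0.00318) and -0.48 (adjusted p = 0.0460), while the dimmest tested probe gave 9.23e-05. The call at -0.48 ended with scaling by the array median and with quantile normalization. Between the siRNAs 2 of these 4 probes were called, at 0.31 (adjusted p = 0.0442) and 0.51 (adjusted p = 0.00226). A probe not called passed with slide as a block (0.30, adjusted p = 0.0393). The call at 0.31 was lost without control replicate 2 or 4, siRNA1 replicate 2, 3, or 4, or any 1 siRNA2 array (adjusted p between 0.0504 and 0.118). With siRNA1 the brightest probe was called only with slide as a block (-0.25, adjusted p = 0.0208, against -0.21 and 0.124 without).

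*Me1*, the cytosolic malic enzyme that yields NADPH, was likewise lower with siRNA2, at 84.2%, 69.2%, and 75.2%, against 103%, 94.9%, 99.5%, and 103% in control and 97.8%, 86.5%, 111%, and 105% with siRNA1. The siRNA2 arrays lay below all others. The log2 difference was -0.40 ± 0.10 against control (adjusted p = 0.0212), and siRNA1 lay above siRNA2 by 0.39 ± 0.10 (adjusted p = 0.0183). The first call was lost without control replicate 1 or 4 or siRNA2 replicate 2 or 3 (adjusted p between 0.0509 and 0.101), and the second without siRNA1 replicate 3 or siRNA2 replicate 2 or 3 (adjusted p between 0.0541 and 0.0878). The malate dehydrogenases *Mdh1* and *Mdh2* were uncalled in all 3 comparisons (*Mdh2* passed between the siRNAs with slide as a block, adjusted p = 0.0455), with brightest-probe differences of -0.18 and -0.14 with siRNA1, -0.15 and 0.13 with siRNA2, and -0.029 and -0.26 between them.

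The phosphofructokinases carry out the committed step of glycolysis, and 2 of 3 genes had a probe that differed between the siRNAs. *Pfkm* was at 99.7%, 96.2%, 98.5%, and 106% in control, 94.1%, 97.0%, 68.1%, and 93.7% with siRNA1, and 114%, 119%, and 134% with siRNA2. The siRNA2 arrays lay above all others, and siRNA1 replicate 3 lay apart from its group. The siRNAs differed by -0.49 ± 0.12 (adjusted p = 0.0158), a call lost without siRNA2 replicate 3 (-0.42, adjusted p = 0.0691), and neither differed from control by the test (-0.19 and 0.29, adjusted p = 0.246 and 0.140). The dimmer probe of *Pfkp* gave -0.89 ± 0.25 between the siRNAs (adjusted p = 0.0229), from 107%, 90.5%, 45.8%, and 65.9% with siRNA1 and 141%, 126%, and 144% with siRNA2, against 113%, 106%, 77.7%, and 107% in control. That call was lost without siRNA1 replicate 4 or siRNA2 replicate 1 or 3 (adjusted p between 0.0522 and 0.0733), and the brighter *Pfkp* probe gave -0.085 (adjusted p = 0.522). *Pfkl* was uncalled (-0.11, -0.17, and 0.061).

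*Pdha1*, the catalytic subunit gene of pyruvate dehydrogenase, differed between the siRNAs by its dimmer probe, at 108%, 106%, 111%, and 101% with siRNA1 and 87.0%, 88.2%, and 84.5% with siRNA2, against 102%, 101%, 97.1%, and 100% in control. The siRNA2 arrays lay below all others. The difference was 0.30 ± 0.07 (adjusted p = 0.0102), within the slides 0.31, 0.30, and 0.26, while the brighter probe gave 0.24 ± 0.15 (adjusted p = 0.293). Against control the dimmer probe was called with siRNA2 only with slide as a block (-0.20, adjusted p = 0.0409, against -0.21 and 0.0662 without).

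**Figure D4:**
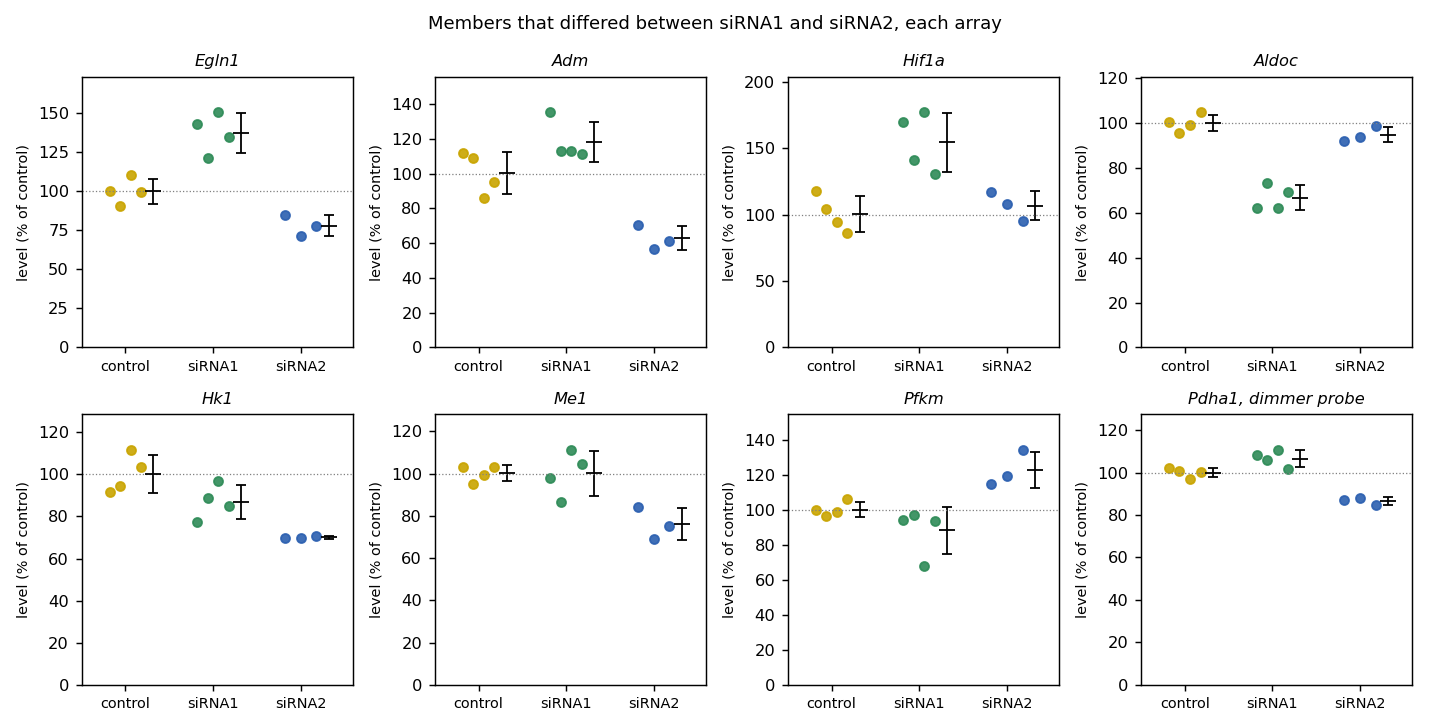
Level of 8 genes that differed between siRNA1 and siRNA2 on every array, in percent of the control group, with points for single arrays and the bar for the mean ± SD (4 control, 4 siRNA1, and 3 siRNA2 arrays; brightest probe, and for *Pdha1* the dimmer one). *Egln1* lies on opposite sides of control in the 2 siRNA groups, *Hif1a* and *Aldoc* lie outside the control range on every siRNA1 array, and *Adm*, *Hk1*, *Me1*, and *Pdha1* lie below it on every siRNA2 array (for *Adm*, the siRNA2 difference turned to 0.045 with normexp background correction).

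Other genes of the same pathways were taken from lists made for this comparison, whose counts stand against 11.8% of all tested probes higher and 15.2% lower with siRNA1, and 7.7% higher and 10.7% lower with siRNA2. Of 23 tested probes for other glycolytic and gluconeogenic genes, 3 were called higher and 7 lower with siRNA1, and 2 higher and 4 lower with siRNA2. Of 35 probes for other hypoxia-response genes, 7 were higher and 2 lower with siRNA1, and 6 higher and 2 lower with siRNA2. Of 36 probes for mitochondrial pyruvate use and the citric acid cycle, 2 were higher and 4 lower with siRNA1, and 2 higher and 5 lower with siRNA2. The pentose phosphate pathway (15 probes) had 3 higher and 1 lower with siRNA1 and 0 higher and 3 lower with siRNA2. The shuttles of malate, aspartate, and glycerol phosphate (11 probes) had 0 higher and 4 lower with siRNA1, and 1 higher and 4 lower with siRNA2, and glycogen metabolism (18 probes) had 2 higher and 0 lower, and 1 higher and 4 lower.

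Within these lists, *Cited2*, which encodes an inhibitor of the hypoxia-inducible factor that competes for its coactivator, was higher with both siRNAs by all 3 probes. Its brightest probe was at 101%, 89.9%, 99.0%, and 111% in control, 185%, 167%, 199%, and 214% with siRNA1, and 209%, 178%, and 242% with siRNA2. The siRNA arrays lay above control and overlapped each other, with log2 differences of 0.93 (adjusted p = 0.000192) and 1.06 (adjusted p = 0.000208). The insulin-regulated glucose carrier *Slc2a4* (GLUT4) was lower with both, at 92.9% to 109% in control, 65.1% to 77.2% with siRNA1, and 41.7% to 45% with siRNA2 (-0.50 and -1.21, adjusted p = 0.00167 and 1.17e-05). The mitochondrial citrate carrier *Slc25a1* gave -0.84 and -0.84 (adjusted p = 0.000634 and 0.0015), the isocitrate dehydrogenase subunit *Idh3a* -0.50 and -0.71 (adjusted p = 0.0249 and 0.00823), the glucose-6-phosphatase *G6pc3* -0.40 and -0.44 (adjusted p = 0.0258 and 0.0345), and a dim probe of the fructose bisphosphatase-like *Tigar* -0.74 and -0.57 (adjusted p = 0.00456 and 0.0325). Higher with both were the gluconeogenic fructose bisphosphatase *Fbp1* (1.53 and 0.37, adjusted p = 1.19e-06 and 0.0179) and citrate synthase, *Cs*, whose 2 probes each gave 0.28 and 0.29 (adjusted p between 0.0119 and 0.0458).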

How the data were processed

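RNA of 11 samples was hybridized to Agilent single-color arrays. The deposited scanner files hold signal intensities that, per the file headers, Feature Extraction (version 9.5.1.1) had corrected for background and left unnormalized between arrays. A deposited table of the authors' group averages was not used. The genes and lists were chosen with earlier results of these data known.

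The intensities were scaled to the 75th percentile of the spots that were not control spots, converted to log2, and averaged over spots of a probe, without outlier-marked spots. RefSeq accessions named 24375 of 41174 probes. The array was annotated on an older genome build, so probes are given without coordinates, and the printed promoters carry those of the RefSeq table. The 3 groups and their 3 contrasts were fitted over all 11 arrays with lmFit and eBayes of limma 3.58.1 in R 4.3.3, for 24248 tested probes, and p-values were Benjamini-Hochberg adjusted over all of them. The fit was tested on simulated data. Standard errors (SE) are of the fitted difference.

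Values were named for *Pgm2l1* and its family, for members called with both siRNAs in 1 direction or between the siRNAs, and, from other lists, for genes called with both, of which 1 is not reported here. A gene is given by its brightest tested probe, and by its called probe where that is another. Of the symbols listed for members, other genes, and markers, 8 had no probe.

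The alternatives were normexp background correction (offset 50) on the median signal and median local background of each spot, since no mean signal was in the files, with and without local backgrounds beyond 5 median absolute deviations replaced, quantile normalization, scaling by the array median, other filters on dim probes, outlier-marked spots kept, slide or replicate number as a block, differences within each slide, separate fits, the methods' t-test, eBayes with trend and robust options, a 2-fold threshold, 1 value per gene, and each array left out in turn. The number of arrays limits the precision. Messenger RNA was measured, and no enzyme activity or metabolite.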

Additional observations from a re-analysis of the deposited data

Results flagged for a closer look

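Among 52 groups of 4 arrays checked for the named genes, 4 held an array far from the others, where chance alone flags about 1 group in 20. *Slc2a8* (dimmer probe) was at 85.1% on control replicate 1, with the other control arrays at 105% to 107%. *Pgm2l1* (brightest probe) was at 93.3% on control replicate 2, against 101% to 103%. *Adm* was at 135% on siRNA1 replicate 1, against 111% to 113%. *Pfkm* was at 68.1% on siRNA1 replicate 3, against 93.7% to 97.0%.

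For 8 probes of 7 genes, the siRNAs differed from each other by the test while their differences from control had opposite signs. On the log2 scale, siRNA1 minus siRNA2 was 0.91 for *Adm*, 0.82 and 0.80 for *Egln1*, 0.51 for a dimmer *Hk1* probe (0.0069 and -0.51 against control), and 0.30 for the dimmer *Pdha1* probe (0.092 and -0.21). It was -0.89 for the dimmer *Pfkp* probe (-0.44 and 0.45), -0.49 for *Pfkm* (-0.19 and 0.29), and -0.43 for a dimmer *Pfkfb2* probe (-0.29 and 0.14). Of these, *Egln1* was called against control with each siRNA, by its brighter probe. The part of siRNA sequence in these differences was not tested.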

How the results depend on the processing

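Of 46 differences named for single probes, 1316 values were computed under alternatives, of which 1107 kept their direction and side of the threshold (or, without a test, moved by less than the spread), 154 lost their call, 47 moved, and 8 reversed. All 8 reversals came with normexp background correction, which moved the median of all probes to 0.22, 0.17, and 0.11 in the 3 comparisons: *Slc2a8* (dimmer probe, 0.22 with siRNA1 and 0.068 with siRNA2), *Pdk2* (0.22 and 0.044), *Pgm1* with siRNA1 (-0.10), *Adm* with siRNA2 (0.045), and, between the siRNAs, *Pfkfb2* (0.066) and the dimmest *Pfkfb3* probe (0.17). With extreme local backgrounds replaced before normexp, 38 of the 46 differences stayed the same, 2 lost their call, 6 moved, and 0 reversed. None reversed within any of the 3 slides.

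The counts below have the share of all called in the same setting in brackets. With extreme local backgrounds replaced before normexp, they were 18 with siRNA1 (30.8%), 14 with siRNA2 (15.5%), and 16 between the siRNAs (22.6%). With siRNA1, the count of 16 called probes became 1 with normexp (1.57%) and 0 with the 2-fold threshold (2.99%). With 1 array left out it was 11 to 16 (20.5% to 27.5%). The count of 17 with siRNA2 became 0 with normexp (0.507%), 10 with scaling by the median (13.4%), and 11 with separate fits (15.2%). It was 9 of 70 probes without a filter on dim probes (7.8%), 10 with the methods' t-test adjusted (11.8%), and 2 with the 2-fold threshold (2.25%). By brightest probe of each gene it was 11 of 42 (19%), and by mean of the probes 10 of 42 (19.1%). With 1 array left out it was 8 to 17 (12.3% to 18.2%). The count of 14 between the siRNAs became 0 with normexp (0.334%), 9 with separate fits (19.8%), and 8 with the methods' t-test adjusted (16.6%). It was 0 with the 2-fold threshold (3.36%), 8 of 43 by brightest probe (24.2%), and 8 of 43 by mean (24.3%). With 1 array left out it was 7 to 14 (17.5% to 23.3%). The median difference moved to -0.25 with normexp and 0.049 with quantile normalization (siRNA1), -0.16 with normexp (siRNA2), and 0.051 with quantile normalization (between the siRNAs), and ranged from -0.073 to -0.0093, -0.061 to -0.0094, and -0.050 to 0.0090 with 1 array left out. The cause was not tested, except that 1 value per gene tests fewer probes and a left-out array leaves fewer samples.

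Arrays with the same replicate number were not paired by the labels, and 7 of 10 pairs of them correlated above 0.1 (median r of 0.30, against -0.10 for different numbers). For 9 of the 11 arrays, the best match in another group had the same number. Pairs on the same slide had a median r of 0.30, against -0.12 for different slides. Number and slide coincide in part, and the main fit held neither. With replicate number as a block, the counts were 19 with siRNA1 (34.6% of all probes), 18 with siRNA2 (24.1%), and 16 between the siRNAs (30.9%). All 40 named differences with a test kept their call. A count of members called with both siRNAs was not run, since both comparisons use the same control arrays. Signal over background limited 4 genes, which had no tested probe.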

Other observations

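Several genes of neighboring pathways lay on opposite sides of control with the 2 siRNAs, and they were picked after their values were seen. *Pgd*, the second dehydrogenase of the pentose phosphate pathway and a source of NADPH, was at 96.8% to 103% on the control arrays, 111% to 119% with siRNA1, and 46.4% to 50% with siRNA2. The log2 difference of its brighter probe was 0.20 with siRNA1 (adjusted p = 0.0494), -1.07 with siRNA2 (adjusted p = 4.83e-06), and 1.27 between the siRNAs (adjusted p = 1.40e-06), and the dimmer probe gave 0.20, -1.09, and 1.29. *Fbp2*, the muscle fructose bisphosphatase, was at 90.1% to 109% in control, 146% to 155% with siRNA1, and 52.5% to 59.4% with siRNA2 (0.60, -0.82, and 1.42 between the siRNAs, adjusted p = 2.08e-06). A dim probe of the transketolase *Tkt* gave 0.29, -0.41, and 0.69.

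In glycogen metabolism, the synthase *Gys1* (-0.99, adjusted p = 0.000354), the branching enzyme *Gbe1* (-0.44, adjusted p = 0.00779), and both probes of the brain phosphorylase *Pygb* (-0.53 and -0.57, adjusted p = 0.00281 and 0.00031) were lower with siRNA2 and uncalled with siRNA1 (0.13, 0.17, -0.019, and 0.050), and all 4 probes differed between the siRNAs (1.12, 0.61, 0.51, and 0.62). Of the other hypoxia-response genes, *Ndrg1* was higher with siRNA1 (1.04, adjusted p = 9.17e-05) and uncalled with siRNA2 (-0.16, adjusted p = 0.464), and *Stc2* was lower with siRNA2 (-0.85, adjusted p = 0.00019) and uncalled with siRNA1 (-0.056, adjusted p = 0.702).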
